A study of Bombyx mori with 12 samples.

Results

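Forewing-only Ubx peaks are the regions that the anti-Ubx list of silkworm forewing buds held and that had no base in common with any peak of the hindwing list. Of 339 forewing peaks, 309 met this rule (91.2%), and the remaining 30 overlapped a hindwing peak by at least 1 base. The hindwing list held 1128 peaks, so the 309 are part of 1467 anti-Ubx peaks in all. The members were chosen by the positions of the called peaks in both lists, a measured readout. For that reason their number and their separation from hindwing peaks are descriptions, and no test was made of them.

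The study used chromatin immunoprecipitation with sequencing (ChIP-seq) on wing buds of Bombyx mori larvae, strain Daizo, in the fourth instar, to find regions bound by Ultrabithorax (Ubx). Its 12 samples formed 6 groups of 2 replicates, which were the anti-Ubx pulldown, the input chromatin and a normal rabbit IgG pulldown, each from forewing buds of the second thoracic segment and from hindwing buds of the third. Reads were single-end, and each chromatin preparation pooled 80 buds, so no value belongs to 1 animal. The antibody was a rabbit polyclonal IgG fraction raised against the N-terminal part of Bombyx Ubx. Whole buds were used, and a separation of the wing layer from the peripodial membrane, the thin epithelium over the bud, is not described. Chromatin of both layers can therefore be in a sample. In the study's staining, Ubx in forewing buds was restricted to the peripodial membrane, while hindwing buds expressed it strongly. The study proposes that forewing-specific peaks could come from that membrane, which was not tested here. The ChIP samples carry no expression values, so the tissue labels were not checked against marker genes here.

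Ubx is a Hox protein, a transcription factor that gives body segments their identity. In Drosophila it turns the dorsal appendage of the third thoracic segment into a haltere in place of a wing, whereas in moths the same segment carries a hindwing. Hox proteins bind short DNA cores rich in A and T, and their target regions are found by ChIP as places where reads pile up over input chromatin, while an IgG pulldown shows which places gather reads with an antibody of no set target.

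Both anti-Ubx lists hold peaks common to the replicates, with 1 set of values per peak. A forewing-only peak is therefore one with no counterpart in the final hindwing list, which is not a measurement of hindwing signal at that place. A hindwing peak that failed the false discovery rate limit or was found in 1 replicate would be missing from that list as well. The genome build behind the scaffold names is not given in the sources used here, and no genome of it was used, so the peaks are named by scaffold and position, counted from 1, without genes or sequence. Scaffold extent means the largest peak end on that scaffold over all 4 lists, and is a lower bound of its length.

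The 4 lists include 2 that hold the peaks of an IgG library each. IgG list 1 is labelled as forewing IgG control replicate 1, but its header names hindwing libraries. IgG list 2 is labelled as forewing IgG control replicate 2 and has a header that names forewing libraries. They were built from 3309855 and 2152046 tags after the duplicate filter, against 15271372 and 18224172 tags of input. Before the filter the IgG libraries held 4787870 and 3278807 tags, under the number of reads that the study's methods ask of a replicate. Tags in a header and reads sequenced need not be the same count. Results that use them are given for each list as well as for both together. For the anti-Ubx libraries no depth is given beside the peaks, although the study's methods set a minimum number of reads for a replicate.

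The 309 peaks covered 298199 bp and were mostly modest in strength. Each peak carries a score, 10 times the −log10 of the p-value that the peak caller MACS assigned, so that the limit of 1e-05 equals a score of 50. Scores ran from 50.3, just above that limit, to 1474, with a median of 95.7 and quartiles of 68.2 and 155. A score of at least 100 was reached by 143 peaks, at least 200 by 49 and at least 300 by 21. Fold enrichment of the summit over the local background had a median of 1.75, with quartiles of 1.55 and 2.06. It ranged from 1.05 to 5.34, was at least 2 in 90 peaks (29.1%) and reached 3 in 11. The 30 forewing peaks that overlapped a hindwing peak had a median score of 151 and a median fold of 1.90, from the same list.

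The peak of highest score filled the whole known extent of its scaffold, an extent that its own end sets. This was scaffold7634, 1 to 755, which scored 1474 at a fold of 3.31 and an FDR of 6.25%, and it lay on a peak of IgG list 2. The next was nscaf2767, 3056277 to 3058318, a 2042 bp region of score 892 and a fold of 4.27, which touched neither IgG list. On nscaf2902, 751398 to 752448 had a score of 838 and, at 5.34, the highest fold of all 309. On scaffold12054, 1 to 774 had a score of 771 and a fold of 3.56, again over a known extent set by its own end. Below these came nscaf1690, 320921 to 322151, at a score of 565 and a fold of 3.48, and nscaf1071, 835546 to 836840, at 513 and 2.89. Of the 10 highest-scoring forewing peaks of the complete list, 7 were forewing-only, which is below their share of 91.2% in the whole list. The first of them ranked 3rd.

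The remaining 4 of the 10 strongest members were scaffold10566, 1 to 637, with a score of 465 and on IgG list 2, nscaf3002, 144631 to 145623, with 441, nscaf2801, 613509 to 616232, with 404, and nscaf2818, 2970913 to 2972142, with 403. With the 2 members on IgG left out, the next in order were nscaf2847, 4316218 to 4317405, at a score of 399 and fold 2.44, and nscaf3002, 136428 to 137914, at a score of 378 and fold 2.01. High scores did not all go with high folds, since the peak on nscaf2801 had a fold of 1.57 over 2724 bp.

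**Figure D1:**
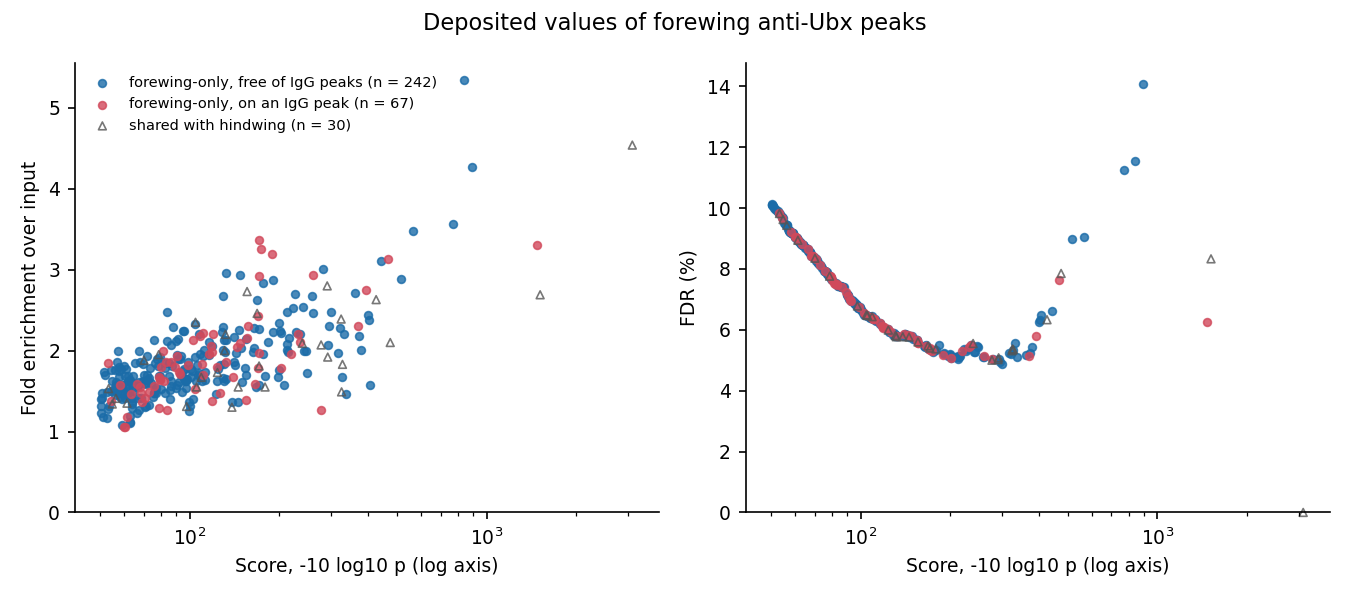
Fold enrichment over input (left) and FDR in percent (right) of each of the 339 forewing peaks against its score on a log axis. Filled points are forewing-only peaks, 242 free of IgG peaks in blue and 67 on an IgG peak in red, and open triangles are the 30 shared with the hindwing list. FDR falls to its lowest forewing-only value of 4.89% at a score of 298.8, rises to 14.06% at a score of 892 and is 6.25% at the highest score of 1474.

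The 3 deposited measures did not rank the peaks in the same way. Over the 309 peaks, Spearman's rho was 0.66 between score and fold, 0.36 between score and width and -0.026 between fold and width. These are descriptions across peaks of one list, which share libraries and depth and are not replicates. FDR, the percent of false calls that MACS estimates by swapping pulldown and input, followed the score along a curve with a turn. Among 166 peaks with a score under 100 the median FDR was 8.37%, among 94 with a score from 100 to 200 it was 5.83%, and among 28 from 200 to 300 it was 5.13%. In the 21 peaks of score 300 and over it was higher again, at a median of 6.24% and a range of 5.11% to 14.06%. The highest-scoring of all, on scaffold7634, was back at 6.25%. An FDR above 10% was carried by 9 peaks, of which 6 had a score under 100 and 3 had a score of at least 300. Those 3 are the peaks on nscaf2767, nscaf2902 and scaffold12054 named above, at 14.06%, 11.54% and 11.24%. A limit on FDR at 10% would therefore take away 3 of the 4 highest-scoring peaks together with 6 of the weakest.

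Forewing-only peaks made up less of the stronger part of the forewing list than of the weaker part. Overlap with a hindwing peak was found for 7 of 173 forewing peaks with a score under 100 (4.05%, Wilson 95% interval 1.97% to 8.12%), 12 of 106 from 100 to 200 (11.3%), 4 of 32 from 200 to 300 (12.5%) and 7 of 28 with a score of 300 and over (25.0%, 12.7% to 43.4%). Since the rule itself decides this share, it is given as a description, with no test. Score also rose with width over all forewing peaks (Spearman's rho 0.4), and a wider peak has more bases that can be shared.

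Nearly all forewing-only peaks were narrow, with a 90th percentile of 1409 bp. The median width was 849 bp, the quartiles were 652 and 1074 bp, and the whole range was 446 to 5195 bp. Peaks that overlapped the hindwing list were wider, at a median of 1303 bp. The rule favours this, since a wider peak has more bases that can be shared. Hindwing peaks without a forewing counterpart had a median width of 869 bp. The widest forewing-only peak, nscaf2993, 4801980 to 4807174, had a fold of 1.39 and lay on IgG list 1. The next was scaffold855, 11058 to 14943, of 3886 bp and a fold of 1.97, which lay on both IgG lists. On nscaf2136, 5384096 to 5386982 spanned 2887 bp at a fold of 1.27 and lay on IgG list 1. The 2 other peaks among the 5 widest, the one on nscaf2801 and nscaf3075, 53852 to 56438, of 2587 bp, were free of IgG peaks on both lists.

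The 309 peaks were spread thinly over 141 scaffolds. A single forewing-only peak was found on 88 scaffolds, 2 on 14, 3 on 11 and 4 on 10. The 18 scaffolds with 5 or more held 120 of the peaks (38.8%). The highest number was 10, on nscaf1898, with an extent of 16.2 Mb, and also on nscaf2964, with 4.94 Mb. These were followed by 9 each on nscaf2888 and nscaf2902. On nscaf1898 the 10 peaks lay between 155163 and 11580093, had scores of 54.2 to 215, and 8 were free of IgG peaks. On nscaf2964, 5 of 10 were free of them, with the highest score of 391 at 1290728 to 1293224, which lay on IgG list 1. On nscaf2888 all 9 were free of them, with scores of 55.3 to 146.

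The count of forewing-only peaks followed scaffold extent. On the 107 scaffolds that reached 1 Mb or more there were 245 of them over 385.7 Mb, or 0.635 per Mb, against 993 hindwing peaks at 2.575 per Mb. Of those scaffolds, 80 held at least 1 and 27 held none. Across the 107, Spearman's rho of the number of forewing-only peaks was 0.69 with extent and 0.59 with the number of hindwing peaks, and both counts grow with scaffold length. On scaffolds that held any, their density ran from 0.14 to 2.31 per Mb. The ratio to hindwing peaks varied widely between scaffolds. On nscaf3003, with 4.87 Mb, 7 forewing-only peaks stood against 3 hindwing peaks, whereas nscaf2888 held 42 hindwing peaks beside its 9.

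**Figure D2:**
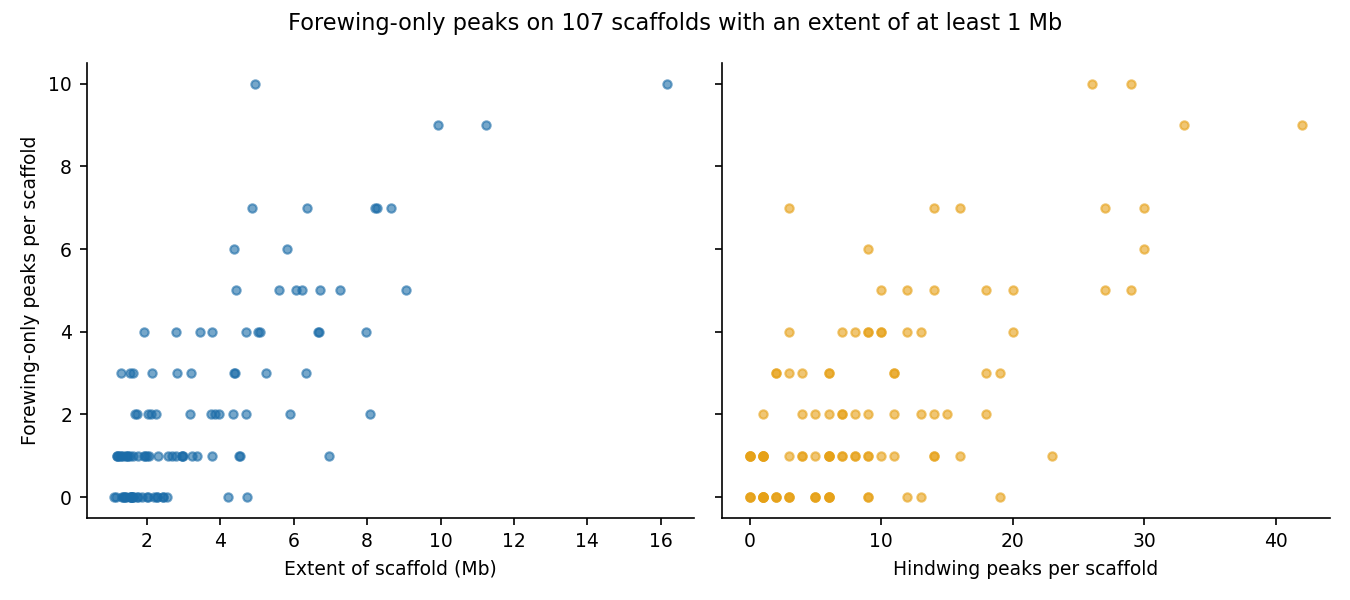
Number of forewing-only peaks on each of the 107 scaffolds that reached 1 Mb or more, against scaffold extent in Mb (left) and the number of hindwing peaks on it (right), 1 point per scaffold. The highest counts are 10 on nscaf1898 and 10 on nscaf2964, and 7 on nscaf3003 stand beside 3 hindwing peaks.

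Some forewing-only peaks lay on scaffolds of very short known extent, which is a lower bound set by the peaks themselves. Extents under 10 kb held 37 of the 309 (12.0%, Wilson 95% interval 8.81% to 16.1%). The same was true of 23 of 1097 hindwing peaks without a forewing counterpart (2.10%, 1.401% to 3.126%) and of 0 of 30 shared forewing peaks, for which the Wilson upper bound is 11.4%. Under 1 kb the numbers were 32 of the forewing-only peaks (10.4%) and 13 of the hindwing ones (1.19%). At least 90% of the known extent was taken up by 28 forewing-only peaks, and 24 started at base 1, so for these the edge of the peak is also the edge of what is known of the scaffold. The 37 had a median score of 104 and a median fold of 1.80, and 7 of them lay on an IgG peak. The 272 on longer known extents had medians of 95.4 and 1.73.

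No other anti-Ubx peak of either wing was present on the scaffolds of 52 forewing-only peaks. For 36 of these the known extent was under 10 kb, which with no other anti-Ubx peak on the scaffold is set by the lone peak or by an IgG peak and says little of the true length. The other 16 lay on longer scaffolds, the longest being nscaf2838 with 2.58 Mb, nscaf2734 with 1.96 Mb, nscaf3093 with 1.28 Mb and nscaf2962 with 1.21 Mb. On these 4 scaffolds the forewing-only peak was the sole anti-Ubx peak over more than 1 Mb.

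Forewing-only peaks were usually far from the next forewing peak. To the nearest other forewing-only peak alone, the median gap was 417 kb. For the 228 with another forewing peak of any kind on the scaffold, the median gap between edges was 377 kb, with quartiles of 95.01 and 914 kb and a range of 0.354 to 7570 kb. Only 4 had such a neighbour within 1 kb, 14 within 10 kb and 28 within 50 kb (9.06%). In windows of 50 kb begun at each peak in turn, 15 windows held at least 2 forewing-only peaks, 2 held at least 3 and 1 held 4. Hindwing peaks without a forewing counterpart were closer to other hindwing peaks of any kind, with a median gap of 56.0 kb and 44.9% within 50 kb. The hindwing list holds more peaks, and the part of list length in these gaps was not tested.

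The densest window lay on nscaf2993, from 4801980 to 4824441. It held the widest forewing-only peak, at 4801980 to 4807174 (score 155), and 3 others at 4813102 to 4814463 (score 64.1), 4814818 to 4816527 (score 219) and 4822724 to 4824441 (score 228). The gaps between them were 5927, 354 and 6196 bp, and folds ran from 1.39 to 2.23. The first and the third lay on peaks of IgG list 1, which had 17 tags each and folds of 0.71 and 0.76 over input. Shared forewing peaks stood on both sides, at 4790949 to 4793214 and at 4832528 to 4833300. Within 60 kb on either side of the widest member there were 4 shared forewing peaks and 10 hindwing peaks as well. No hindwing peak stood among the 4 members themselves, since the nearest ones were 10608 bp before the first member and 8066 bp after the last.

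Few other forewing-only peaks stood in close pairs. On nscaf2847, 7980852 to 7981812 and 7982484 to 7983374 were 671 bp apart, with scores of 98.3 and 64.0. On nscaf2136, 4234068 to 4235115 and 4237050 to 4238284 were 1934 bp apart, with scores of 242 and 109.5, and the nearest hindwing peak was 1480 bp away. The pair on nscaf2801 was 4138 bp apart, with 608204 to 609370 at a score of 148 beside the stronger peak named above. This weaker member lay on IgG list 2. The pair on nscaf3002 was 6716 bp apart, and both of its members, with scores of 378 and 441, were among the strongest peaks free of IgG. On nscaf3058, 833301 to 833917 and 843175 to 844683 were separated by 9257 bp.

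**Figure D3:**
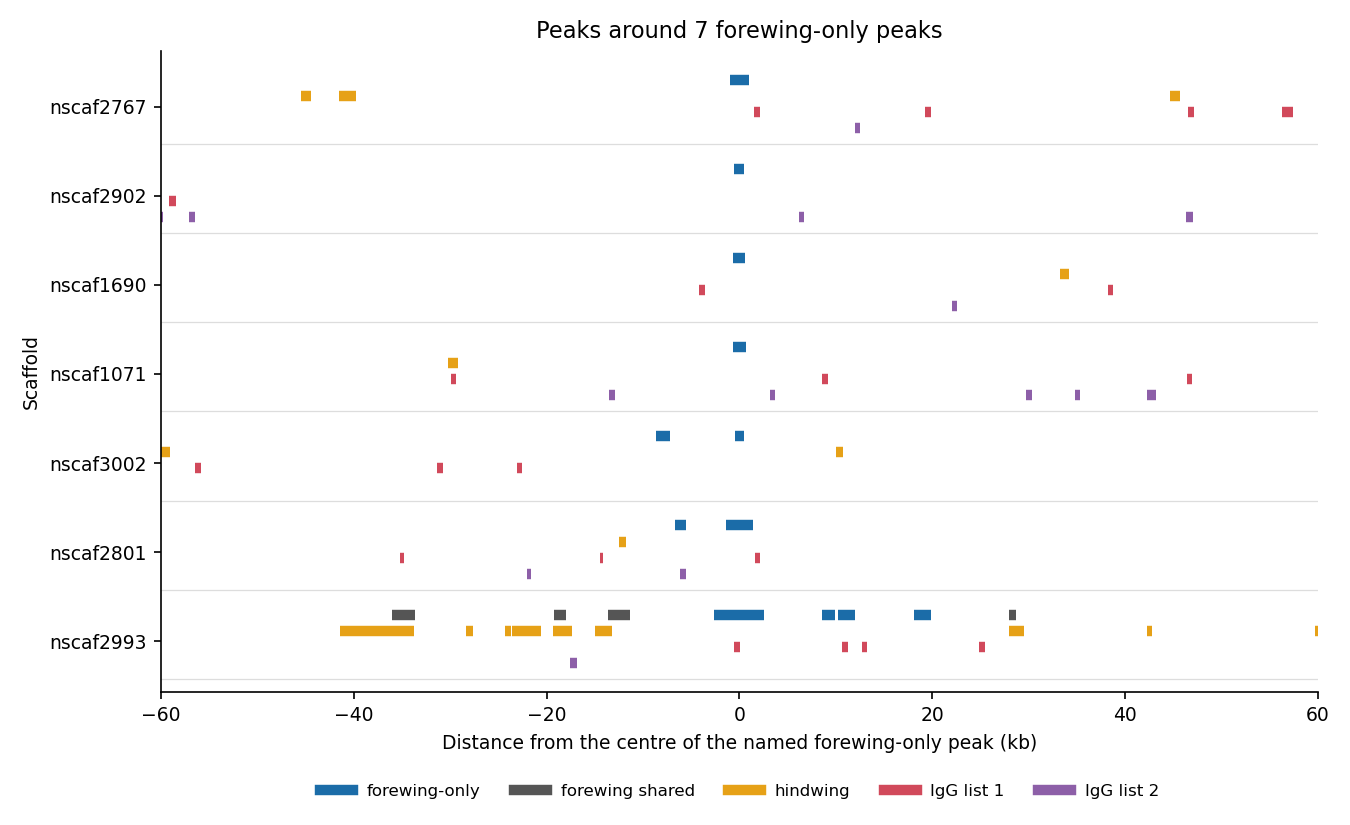
Peaks of the 4 lists within 60 kb on either side of 7 forewing-only peaks, 1 row per scaffold, drawn to scale by distance in kb from the centre of each and coloured by list. The stretch on nscaf2993 holds 4 forewing-only, 4 shared forewing and 10 hindwing peaks, while that on nscaf2902 holds 1 forewing-only and 0 hindwing peaks.

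The number that MACS gave each call gives a view of how many calls lay between the peaks of the list. These numbers rose with position over 338 of 338 neighbouring entries, and the highest was 15122. If they count the calls of 1 run, the 339 entries are at most 2.24% of its calls. Between adjacent forewing-only peaks of one scaffold, of which there were 159 pairs with a median gap of 620 kb, a median of 19 and at most 203 other calls lay in between. In 9 pairs the numbers were consecutive, so no call stood between them, among these the pairs on nscaf2847, nscaf2136, nscaf2801 and nscaf3002. In the hindwing list the highest number was 8527, so its 1128 entries would be at most 13.2%.

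Distance to the nearest hindwing peak could be measured for 257 forewing-only peaks, those with a hindwing peak on the same scaffold. The median gap was 126 kb, with quartiles of 31.9 and 303 kb and a longest gap of 1827 kb. Within 1 kb there were 4, within 5 kb 18, within 10 kb 27 (8.74% of 309), within 50 kb 86 (27.8%) and within 100 kb 115 (37.2%). Where a scaffold held both another forewing peak and a hindwing peak, the hindwing peak was the nearer one for 163 of 228 and the forewing peak for 65. The hindwing list is also the longer of the lists, with 1128 against 339 peaks.

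The members just inside the rule lay next to a hindwing peak. The nearest, nscaf2766, 776611 to 777486, scored 60.8 at a fold of 1.54 and lay 175 bp from the hindwing peak at 775191 to 776435. On nscaf3058, 843175 to 844683, with a score of 296, was 292 bp from 844976 to 845505. On nscaf2529, 4158154 to 4160683, with a score of 327, was 623 bp from 4161307 to 4162317. Next came nscaf2930, 813734 to 814381, at 841 bp, which also lay on IgG list 1, and nscaf2529, 5744845 to 5746381, at 1170 bp. In 5 peaks the gap to the hindwing peak was shorter than the width of the forewing peak itself. Just outside the rule were shared forewing peaks with few bases in common with the hindwing list. They were nscaf3097, 463428 to 464034, with 112 bp in common, nscaf2828, 1176922 to 1178365, with 253 bp, nscaf3056, 1440170 to 1441230, with 309 bp, nscaf2993, 4790949 to 4793214, with 423 bp, and nscaf2681, 363422 to 364339, with 711 bp.

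At the other end, the 5 forewing-only peaks farthest from a hindwing peak of their scaffold were nscaf1690, 3222788 to 3223652, at 1827 kb, nscaf2176, 4342988 to 4343680, at 1560 kb, nscaf3063, 3632577 to 3633596, at 1453 kb, and nscaf3003, 2100851 to 2101903 and 2702008 to 2702740, at 1355 and 1130 kb. Those on nscaf1690 and nscaf3063 lay on peaks of IgG list 1. Of the strongest peaks, those on nscaf2818, nscaf3002, nscaf1071, nscaf1690 and nscaf2767 had a hindwing peak at 6.62, 9.56, 28.5, 32.7 and 38.7 kb, whereas the one on nscaf2902 had none within 313 kb.

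**Figure D4:**
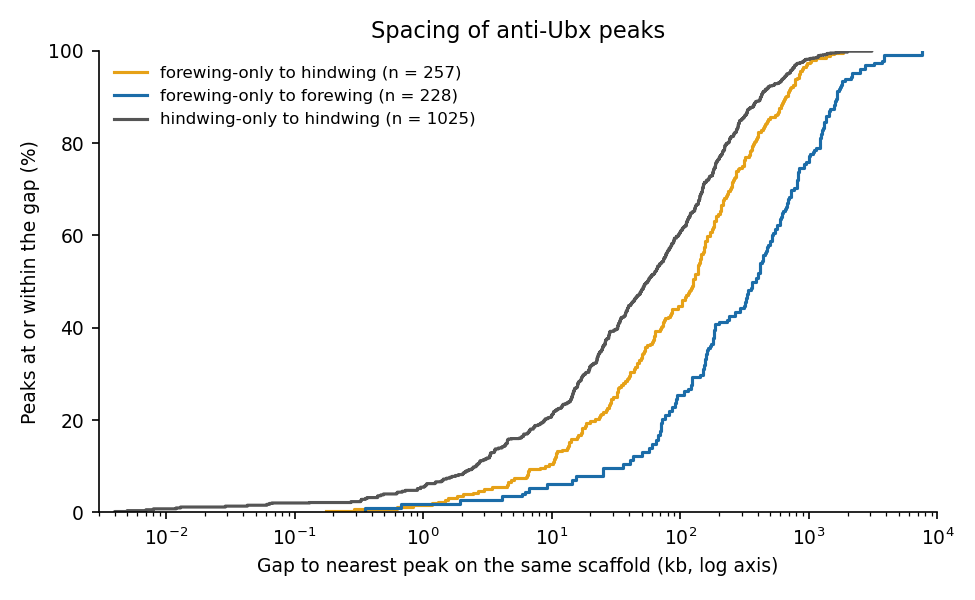
Cumulative share of peaks by the gap in kb (log axis) to the nearest peak, for forewing-only peaks to hindwing and to other forewing peaks and for hindwing peaks without a forewing counterpart to other hindwing peaks. The median gaps are 126 kb, 377 kb and 56.0 kb.

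Some of the forewing-only peaks coincided with peaks of the IgG pulldowns. On IgG list 1 lay 53 of 309 (17.2%, Wilson 95% interval 13.4% to 21.8%), beside 15.9% of all forewing peaks, and on IgG list 2 lay 27 (8.74%, 6.08% to 12.4%), beside 8.85%. On either list there were 67 (21.7%, 17.5% to 26.6%), beside 20.6%, and on both there were 13 (4.21%). The forewing-only peaks make up most of the forewing list, so these shares are near each other by construction. Of all hindwing peaks, 1.15% lay on list 1, 3.19% on list 2 and 4.34% on either, and over the anti-Ubx peaks of both wings 8.11% lay on either. Of the 30 shared forewing peaks, 1 lay on list 1, 3 on list 2 and 3 on either (10.0%, 3.46% to 25.6%). Of the 1097 hindwing peaks without a forewing counterpart, 12 lay on list 1 (1.09%, 0.627% to 1.90%), 33 on list 2 (3.01%, 2.15% to 4.19%), 45 on either (4.10%, 3.08% to 5.45%) and 0 on both, with a Wilson upper bound of 0.349%. With all IgG peaks counted, the forewing-only share was above the hindwing share on each list. List 1, whose header names hindwing libraries, held the lower share of hindwing peaks. On list 2 the forewing-only share rests on IgG peaks of high FDR. With IgG peaks of an FDR up to 15%, 2 forewing-only peaks lay on list 2. With IgG peaks of fold 2 or more, 8 forewing-only peaks lay on list 1 and 5 on list 2. The hindwing share was not computed at either limit, so the order of the shares is not known there. Intervals cover counting error alone, peaks are not replicates of a wing bud, and whether the order of the shares comes from the filter against IgG peaks that the study describes was not tested.

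**Figure D5:**
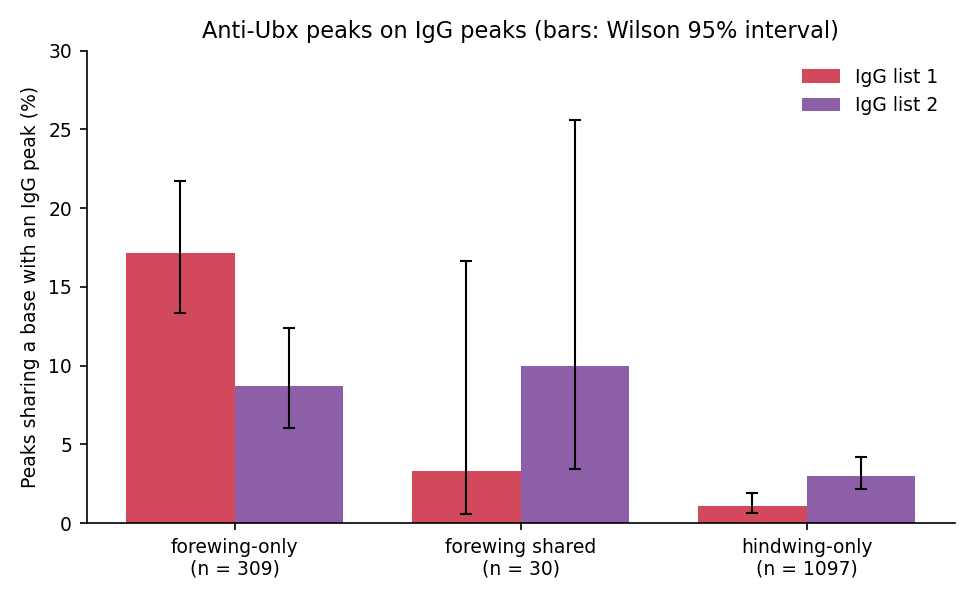
Share of peaks in percent that lie on IgG list 1 (red) and IgG list 2 (purple), for the 309 forewing-only, 30 shared forewing and 1097 hindwing peaks without a forewing counterpart, with Wilson 95% intervals as error bars. The forewing-only shares are 17.2% and 8.74%, against 1.09% and 3.01% for the hindwing peaks. With IgG peaks of an FDR up to 15%, 2 forewing-only peaks lay on list 2. With IgG peaks of fold 2 or more, 8 lay on list 1 and 5 on list 2. The hindwing shares were not computed at these limits.

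The IgG peaks under forewing-only peaks mostly had low folds, while their scores and FDR differed between the lists. On list 1, 54 IgG peaks lay under them with a median of 24 tags and a median fold over input of 1.125, beside 20 tags and 1.23 for all 10213 peaks of that list. Of the 54, 23 had a fold under 1, beside 31.5% of all peaks of list 1. A fold of at least 2 was found in 8 and an FDR above 15% in 1. Over all of list 1 the 90th percentile was 2.15 for fold and 5.8% for FDR. Their median score was 161 and their median FDR 3.44%, beside 179 and 2.77% for the whole list. On list 2, 28 IgG peaks lay under them with a median of 23 tags and a fold of 1.045, beside 14 tags and 1.10 for all 8986. Of the 28, 14 had a fold under 1, beside 39.6% of all peaks of list 2. A fold of at least 2 was found in 5 and an FDR above 15% in 26. Over all of list 2 the 90th percentile of fold was 1.82 and the upper quartile of FDR 15.65%. Their median score of 536 was above the 439 of the whole list, and their median FDR of 21.6% above its 12.28%. The IgG peak covered a median of 69.0% of the forewing-only peak on list 1 and 59.2% on list 2.

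A few members lay on IgG peaks of higher fold. Folds of the anti-Ubx and IgG lists come from separate MACS runs and are given side by side. Under nscaf3056, 1008852 to 1009484, with an anti-Ubx fold of 2.06, IgG list 1 had 83 tags and a fold of 5.94, and list 2 had 35 tags and a fold of 1.30. Under nscaf2176, 181942 to 182536, with an anti-Ubx fold of 3.37, the IgG folds were 4.14 on list 1 and 2.13 on list 2. Under nscaf2681, 548526 to 549224, with an anti-Ubx fold of 3.20, they were 2.46 and 2.55. The IgG peak of list 2 under the highest-scoring member on scaffold7634 had 101 tags and a fold of 0.34, beside an anti-Ubx fold of 3.31.

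A peak counted as free where no IgG peak shared a base with it, and IgG libraries of few tags can miss such places. The part free of both IgG lists held 242 peaks (78.3%, Wilson 95% interval 73.4% to 82.6%) on 121 scaffolds. These had a median score of 93.5, a median fold of 1.71 and a median width of 828 bp, against 111, 1.80 and 877 bp for the 67 on an IgG peak, so that by these medians the peaks on IgG were not the weaker ones. The 53 on list 1 had medians of 118, 1.86 and 877 bp, and the 27 on list 2 had 110.01, 1.78 and 864 bp. By score, an IgG peak lay under 29 of 166 with a score under 100 (17.5%), 28 of 94 from 100 to 200 (29.8%), 6 of 28 from 200 to 300 (21.4%) and 4 of 21 of 300 and over (19.0%). In the same order, list 1 lay under 20, 26, 5 and 2 of them and list 2 under 13, 11, 1 and 2.

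The IgG-free peaks stood closer to hindwing peaks. Their median gap was 104 kb in the 200 that had a hindwing peak on the scaffold, against 227 kb in the 57 on an IgG peak. It was 202 kb in the 45 on list 1 and 292 kb in the 24 on list 2. On the scaffolds of 1 Mb or more, 68 of 192 IgG-free peaks were within 50 kb of a hindwing peak (35.4%, 29.0% to 42.4%), against 8 of 53 of those on IgG (15.1%, 7.85% to 27.1%). The share within 50 kb on these scaffolds was 7 of 42 for peaks on IgG list 1 and 1 of 23 for peaks on list 2. Peaks on the lists are not separate groups, since 13 forewing-only peaks lay on both. The gap to the nearest other forewing peak was 362 kb in the IgG-free part and 431 kb in the peaks on IgG, with 431 kb on list 1 and 436 kb on list 2. The distance to hindwing peaks is part of the rule that chose these peaks, and no test was made of the difference. The intervals cover counting error alone, and peaks are not replicates.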

How the data were processed

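According to the methods and labels, the authors aligned reads with Bowtie 0.12.7, called peaks with MACS 1.4.0rc2 against input, applied an FDR limit, took out peaks also seen in the IgG pulldown and retained those present in both replicates, with bedtools among the tools named. Despite the IgG step as described, 70 of the 339 forewing peaks shared a base with a peak of either IgG list. The same held for 49 of the 1128 hindwing peaks. The genome build is not given in the sources used here. Per the file headers, the IgG tables used a band width of 300 bp, a p-value limit of 1e-05, a d of 200 bp and at most 2 duplicate tags per position. The deposited tag counts per peak are whole numbers and not normalized. The deposited score is 10 times a −log10 p-value from MACS. The deposited fold enrichment is a ratio of summit to local background. FDR is a deposited percent. Peak length is as deposited in bp. The anti-Ubx lists have no header, so their columns were assigned from their ranges and order, and which replicate they describe is not stated. For that reason anti-Ubx scores and folds were not compared between the wings, and IgG folds stand beside them as values of separate runs.

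Forewing-only peaks were found by overlap of at least 1 bp, after adding 1 to the starts of the anti-Ubx lists. Gaps run from edge to edge on the same scaffold. Shares carry Wilson 95% intervals, which cover counting error only. No p-value was computed, since peaks are not replicates and each anti-Ubx list merges 2 replicates. Peaks named are the 10 of highest score, the 10 of highest score free of IgG, the 5 widest, the 5 nearest to and the 5 farthest from a hindwing peak, the densest 50 kb window and the 5 shared peaks with fewest shared bases. Other peaks, such as pairs and peaks of high IgG fold, were named after their values were seen. Members and lists were chosen with earlier results of these data known. Alternatives were other overlap rules, widths, scores, scaffold extents, gap measures and IgG limits, and leaving out each IgG library. The overlap and gap functions were tested on simulated lists. Input libraries, per-replicate anti-Ubx peaks and the samples labelled hindwing IgG were not analysed here, but the header of IgG list 1 names hindwing libraries. Python 3.11.15, numpy 2.4.6, pandas 2.3.3, scipy 1.17.1 and matplotlib 3.10.9 were used.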

Additional observations from a re-analysis of the deposited data

How the results depend on the processing

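For 11 results, 44 alternatives were computed, 3 of them chosen after seeing the data (only scaffolds of 10 kb or more). In 37 the value stayed within 1.5 times the reported count or within the spread of the peaks. Medians were held against the spread over peaks, which the median of a subset rarely leaves, so this tally does not measure stability. The IgG-free count also stayed within its limit, at 298, with IgG peaks of fold 2 or more. The 7 values that moved follow. The number of forewing-only peaks was 143 with a score of at least 100. The scaffolds that held forewing-only peaks numbered 80 when only those of 1 Mb or more were kept. With IgG peaks of fold 2 or more, 11 lay on either IgG list, 8 on list 1 and 5 on list 2. With IgG peaks of an FDR up to 15%, 2 lay on list 2. Leaving out 1 IgG library gave 27 to 53 on IgG, 27 without forewing IgG control replicate 1, and 256 to 282 free of it. No paired analysis was possible because the lists carry no values per replicate. The search for Hox cores was not run, as no genome of the build was used. The depth of each anti-Ubx library was not used, and a missing hindwing peak does not show missing binding, and scaffold extents are lower bounds.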

Other observations

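Of the 107 scaffolds that reached 1 Mb or more, 27 held no forewing-only peak. The longest of these had 4.73 Mb. The one with most hindwing peaks was nscaf2795, with 19 over 4.20 Mb, followed by nscaf2951 with 13 and nscaf2770 with 12.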
